A study of Homo sapiens with 8 samples.

Results

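The first 12 h of exposure to tumour necrosis factor alpha (TNF-α) were followed in NS-SV-AC, an established, immortalised cell line derived from the saliva-secreting acini of the human salivary gland. The stage at 2 h was set against a later stage, the mean of 6 h and 12 h. Of the 8 arrays in the series, 3 made up this time course: cells given TNF-α at 20 ng/ml for 2 h, 6 h and 12 h. Another 3 arrays of cells given bovine serum albumin (BSA) for the same hours showed what the same stretch of culture did without the cytokine. The 24 h arrays were left out of the comparison. Each condition was measured on 1 array, all arrays came from this 1 line, and the labels name no separate cultures.

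TNF-α binds its receptors and releases the transcription factor NF-κB, which switches on chemokines, cytokines and, at the same time, the genes of its own inhibitors. Cells thus pass from a short burst of early transcripts to later ones, many of which depend on proteins made in between. A well-known second wave runs through interferon-stimulated genes, which are driven by complexes of STAT proteins with IRF9 and by other interferon regulatory factors. A change of medium or handling can by itself set off the serum response, in which immediate early genes such as EGR1 are switched on for a short time. In the salivary gland, chemokines and interferon-stimulated genes made by the epithelium are known from inflammation in Sjögren's disease.

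Values are on the log2 scale, 1 per gene and array, for 18239 genes. A change is the mean of the 6 h and 12 h arrays minus the 2 h array of the same treatment, so that a change of 1 is 2-fold. Each change carries a standard error (SE) from limma, which took the spread between the 6 h and 12 h arrays of each treatment as its error. With no replicates these p-values measure only that spread, which may be technical and also holds any real change between 6 h and 12 h. Rose and fell are written only of genes whose adjusted p was under 0.05; other genes are given by their values. In these bulk extracts a shift in every cell and a shift in some of the cells cannot be told apart.

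The 6 arrays were of like quality. Across genes they correlated with r from 0.98 to 0.99, and the 3′ end of GAPDH read 0.20 to 0.37 above its 5′ end on all of them. For ACTB the gap was larger, at 2.59 to 3.09 on the 6 arrays. Markers were checked against the label. The keratins KRT8 (8.59 to 8.91) and KRT18 (9.98 to 10.33) were high on all 6 arrays, as was SLC12A2, the salt carrier of secreting acini (7.0 to 7.65). The other duct keratins on the list, KRT7 (3.07 to 3.54) and KRT19 (3.75 to 4.07), were below the median of all gene values, 5.10, on every array. The other 7 measured acinar markers, AQP5, BHLHA15, PRB1, MUC7, STATH, PIP and LPO, lay between 2.80 and 4.22, also below that median, and so did the epithelial adhesion genes EPCAM and CDH1. Of the 6 fibroblast markers COL3A1 (8.91 to 9.40), LUM (7.51 to 8.20) and DCN (6.82 to 7.07) were above that median. The 5 leukocyte markers, PTPRC and CD14 among them, and the 4 endothelial markers were below it on every array. No marker of these lists was at least 2-fold apart between 2 h and the later stage in either treatment, and the summed fibroblast level stayed between 9.89 and 10.05.

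The transcripts higher at 6 and 12 h of TNF-α than at 2 h mostly changed little in the control cells, more often upward. Those that were lower were often lower in the control cells too, and by more. The gene that rose most was CXCL10, a chemokine that draws T cells, at 28.4-fold. The gene that fell most was EGR1, a zinc finger transcription factor of the immediate early response, at 17.8-fold lower, and it fell in the control cells as well. In the TNF-treated cells 183 genes were at least 2-fold higher later than at 2 h (1.0% of the genes tested) and 168 at least 2-fold lower (0.921%). In the control cells 23 genes were at least 2-fold higher (0.126%) and 54 lower (0.296%).

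**Figure D1:**
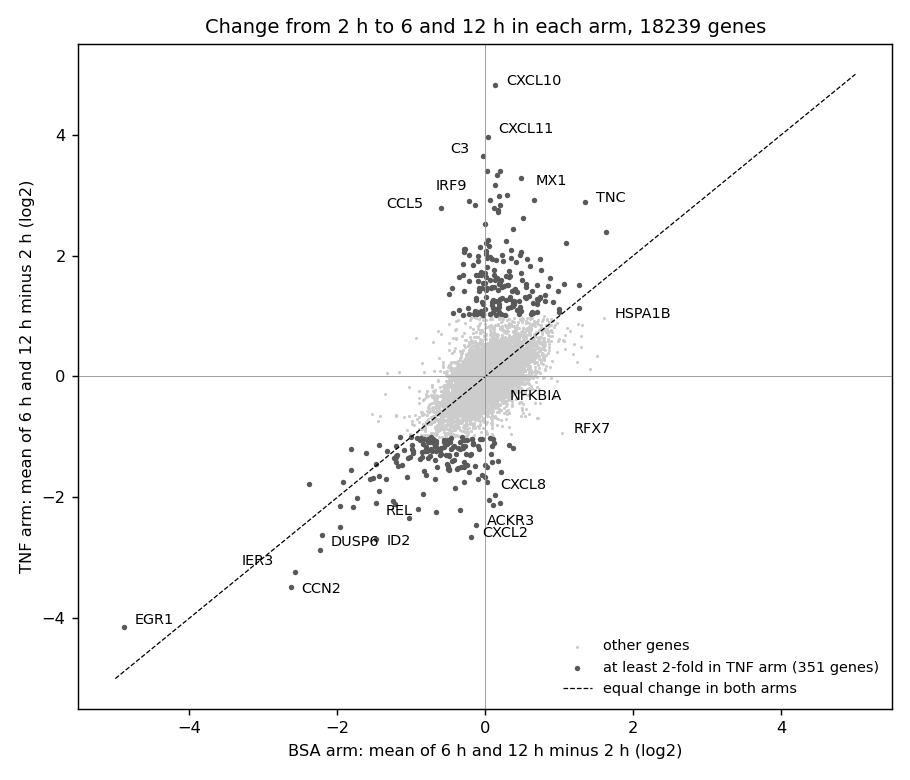
Each point is 1 of 18239 genes, with its change in the BSA-treated cells on the horizontal axis and in the TNF-treated cells on the vertical axis (both log2, mean of 6 h and 12 h minus 2 h). Dark points are the 351 genes at least 2-fold apart in the TNF-treated cells, and the dashed line marks equal change. The genes above 1 on the vertical axis gather near 0 on the horizontal axis, with CXCL10 at 4.83 against 0.13, whereas many of those below −1 follow the dashed line, with EGR1 at −4.15 against −4.89.

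The genes on the higher and lower side differed in how they stood in the control cells. Of the 183 higher genes 6 were also at least 2-fold higher with BSA (3.28% of the TNF list and 26.1% of the BSA list): BCAR3, IFI44, MREG, MT1M, TGM2 and TNC. The median change of the 183 was 1.47 with TNF-α and 0.18 with BSA. For 145 of the 183 the BSA change lay within 0.5 of 0, and for 134 it was above 0. Of the 168 lower genes 41 were also at least 2-fold lower with BSA. That is 24.4% of the TNF list (0.296% over all genes) and 75.9% of the BSA list (0.921% over all genes). On both sides the shared part was thus above the share over all genes. The median of the lower genes was −1.28 with TNF-α and −0.66 with BSA. Of these genes 66 had a BSA change within 0.5 of 0, and 152 had one below 0. Over all genes the median change was −0.0048 with TNF-α and −0.017 with BSA. The 0.05 and 0.95 quantiles of the BSA change over all genes were −0.38 and 0.40. Most genes thus lay within 0.5 of 0 with BSA, so the 145 do not set the higher genes apart. At the edge of the 2-fold limit stood GAS1 (1.01) inside and LTBR (1.0, before rounding under 1) outside on the higher side, and SLC30A1 inside and DUSP4 outside on the lower side, both at −1.0.

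Few single genes passed the limma test. With TNF-α, 3 genes rose (0.0164%), namely CXCL10, SAA2 and TNIP1, and 1 fell (0.00548%), namely EGR1. With BSA, 0 genes rose (0%) and 1 fell (0.00548%), again EGR1. Without adjustment, p was under 0.05 for 1448 genes with TNF-α and 964 with BSA. The difference between the changes of the 2 treatments passed for 0 genes above (0%) and 0 below (0%), with 431 genes at an unadjusted p under 0.05 and a smallest adjusted p of 0.168. When the TNF-α and BSA arrays of the same hour were paired through a term for the hour, a fit added after the values were seen, the differences were of the same size and passed for 68 genes above (0.373%) and 17 below (0.0932%). CXCL10 (4.70, limma with the hour term, adjusted p = 8.79e-05), SAA2 (3.38), GBP3 (3.12), IRF9 (3.18) and XAF1 (2.97) led the former, and ACKR3 (−2.34, limma with the hour term, adjusted p = 0.00249) led the latter. This fit removes drift shared by both treatments and has 1 residual degree of freedom. Its error is the change in the gap between the treatments from 6 h to 12 h, on single arrays. Genes whose gap was alike at both hours therefore pass more readily than genes whose gap changed. Its p-values do not measure a spread between replicates. By size alone, the TNF change was at least 2-fold above the BSA change for 156 genes (0.855%) and at least 2-fold below it for 69 (0.378%). The model without the hour term had 2 residual degrees of freedom, and when any 1 of the later arrays was left out 0 genes passed. With a prior variance that follows intensity and resists outliers, 21 genes rose and 14 fell with TNF-α, and the difference passed for CXCL10 and SAA2.

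Chemokines of the interferon-inducible CXC group stood highest. They bind the receptor CXCR3 on activated T cells. CXCL10 read 5.64 at 2 h, 10.52 at 6 h and 10.42 at 12 h with TNF-α, and 3.45, 3.69 and 3.46 with BSA. It was thus already above its control at 2 h and level from 6 h to 12 h. CXCL10 rose by 4.83 ± 0.15 (SE) with TNF-α (limma, adjusted p = 0.0305), against 0.13 ± 0.15 with BSA. CXCL11 read 2.96, 6.42 and 7.44 with TNF-α and 2.73, 2.73 and 2.80 with BSA. Its change of 3.97 ± 0.43 did not pass (limma, adjusted p = 0.165), and all of its 3 probe sets were higher. CXCL9, the remaining member, lay between 3.46 and 3.62 on all 6 arrays.

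The interferon-stimulated effector genes, whose products block viral entry, translation and replication, were higher later as a group with TNF-α. All 35 listed genes were above their 2 h value with TNF-α and 24 at least 2-fold, while 0 passed limma. With the hour term the difference from BSA passed for 9 of them, among them XAF1, CMPK2 and EPSTI1. The list's median change was 1.55 with TNF-α and 0.14 with BSA, and 23 of the 35 were above their 2 h value with BSA. MX1, a dynamin-like GTPase that traps viral nucleocapsids, read 5.32, 7.87 and 9.34 with TNF-α at 2 h, 6 h and 12 h, and 5.27, 5.84 and 5.66 with BSA. At 2 h MX1 did not stand above its control, and at 12 h it was 3.68 above it. CMPK2, a mitochondrial nucleotide kinase next to the viperin gene, read 3.70, 6.15 and 7.25 with TNF-α and 3.64, 3.97 and 3.87 with BSA (on 1 of its 3 probe sets the TNF change was −0.03). XAF1, an antagonist of the apoptosis inhibitor XIAP, read 4.98, 7.62 and 8.0 with TNF-α and 5.03, 4.84 and 4.94 with BSA. EPSTI1, named for interaction between epithelium and stroma, read 4.94, 7.14 and 7.23 with TNF-α and 4.88, 5.08 and 5.23 with BSA. These profiles differ in shape: EPSTI1 was near its 12 h level by 6 h, and MX1 was more than 2-fold higher at 12 h than at 6 h. IFIT1, which binds viral RNA lacking the host cap, read 6.78, 8.22 and 9.23 with TNF-α, and with BSA it was higher at each later time as well, at 6.60, 7.09 and 7.58.

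**Figure D2:**
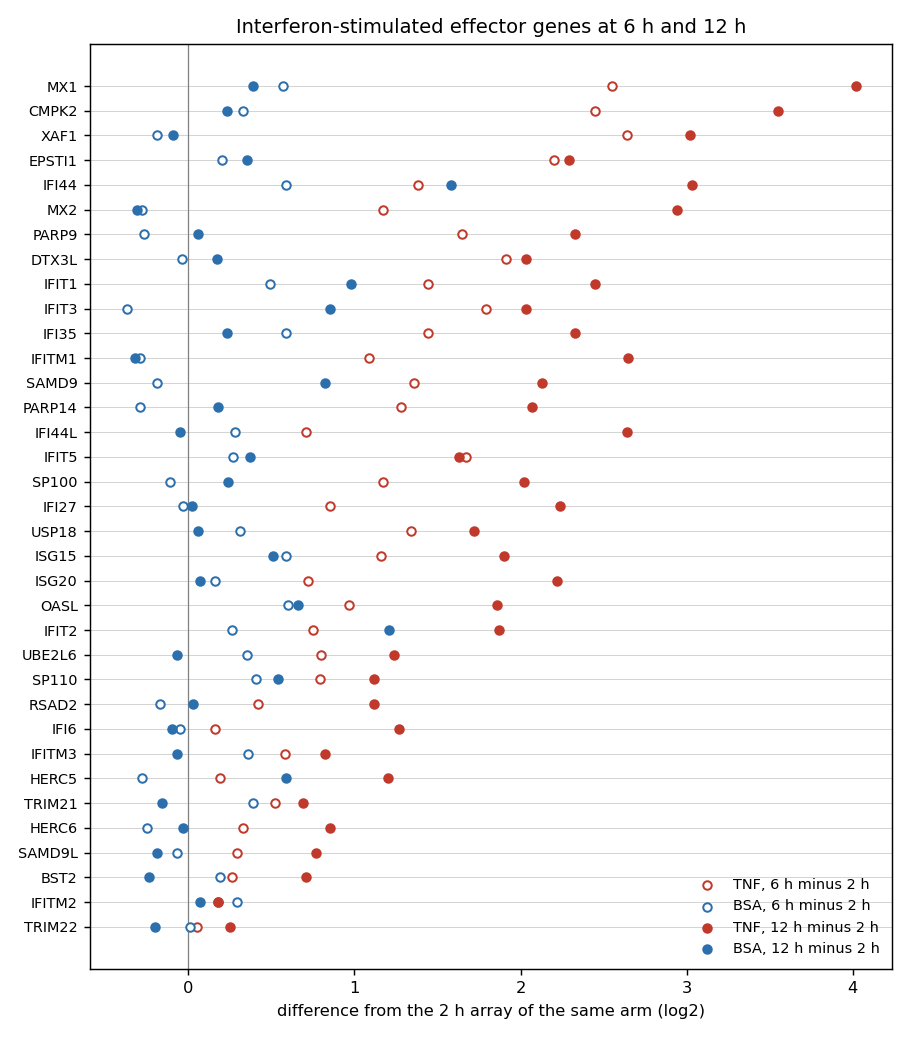
Rows are the 35 interferon-stimulated effector genes, ordered by their TNF change. Open circles give 6 h minus 2 h and filled circles 12 h minus 2 h on the log2 axis, in red for TNF-α and in blue for BSA, with 1 array behind each value. The red point furthest to the right is MX1 at 12 h (from 5.32 to 9.34), and for most genes the filled red point lies to the right of the open one. Most blue points lie within 0.5 of 0, with IFI44 at 12 h (from 5.10 to 6.68) as the furthest.

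Factors that carry interferon signals were examined next. IRF9, a DNA-binding factor of the interferon response, read 4.94, 8.12 and 8.43 with TNF-α and 5.08, 5.19 and 5.26 with BSA. Its change of 3.33 ± 0.17 with TNF-α had an adjusted p of 0.0613 (limma), and all 4 of its probe sets were higher. IRF2, which competes with IRF1 for the same sites, read 6.72, 8.79 and 8.57 with TNF-α and 6.75, 6.98 and 7.23 with BSA. IRF1 itself was highest at 2 h, at 9.85, 9.51 and 8.32 with TNF-α and 7.24, 6.96 and 6.16 with BSA. Thus IRF1 was above its control at all 3 times but lower at 12 h than at 2 h in both treatments. STAT5A, which relays signals of cytokine receptors, read 4.62, 5.64 and 5.46 with TNF-α and 3.61, 3.42 and 3.39 with BSA. The listed interferons that were measured were low throughout. IFNB1 lay between 3.02 and 3.24 on the 6 arrays, IFNL1 between 2.95 and 3.15, IFNK between 2.61 and 2.73 and IFNE between 3.07 and 3.25. All of these values were below the lower quartile of all gene values, 3.72, so a response could be missed. Among 15 measured interferons, receptors and kinases, SOCS1, a feedback inhibitor of Janus kinases, was the one at least 2-fold higher with TNF-α, at 3.99, 5.53 and 5.40 against 5.11, 5.38 and 5.01 with BSA (on the other of its 2 probe sets the change was −0.12). SOCS1 was thus 1.11 below its control at 2 h and 0.16 and 0.39 above it at 6 h and 12 h.

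Promoters were compared for the element bound by these factors. Promoters from RefSeq (GRCh38.p14), 250 bases before to 50 bases after the start of the gene, matched 143 of the 183 higher genes and 138 of the 168 lower ones. Both strands were searched for the core of the interferon-stimulated response element, GAAANNGAA. It was present in 36 of the 143 promoters of higher genes (25.2%), in 9 of the 138 of lower genes (6.52%) and in 1000 of 14492 promoters of all measured genes (6.90%). The NF-κB consensus was present in 23.1%, 16.7% and 12.4%, the AP-1 site TGANTCA in 9.09%, 6.52% and 5.73%, and the CArG box of serum response factor in 2.10%, 0.725% and 1.26%. A match of letters is a description and does not show that the site is used. The promoters of CXCL10 (chr4:76023448-76023747, minus strand) and MX1 (chr21:41420308-41420607, plus strand) are shown because these are the genes with the largest TNF changes among those holding the element, with matches to the element and to the NF-κB consensus in capitals.
CXCL10: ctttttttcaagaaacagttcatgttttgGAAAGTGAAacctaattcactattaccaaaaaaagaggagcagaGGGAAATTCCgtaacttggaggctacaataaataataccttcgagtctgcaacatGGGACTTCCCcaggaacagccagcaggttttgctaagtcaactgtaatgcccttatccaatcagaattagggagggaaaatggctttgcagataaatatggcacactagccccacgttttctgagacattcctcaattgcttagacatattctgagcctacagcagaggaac
MX1: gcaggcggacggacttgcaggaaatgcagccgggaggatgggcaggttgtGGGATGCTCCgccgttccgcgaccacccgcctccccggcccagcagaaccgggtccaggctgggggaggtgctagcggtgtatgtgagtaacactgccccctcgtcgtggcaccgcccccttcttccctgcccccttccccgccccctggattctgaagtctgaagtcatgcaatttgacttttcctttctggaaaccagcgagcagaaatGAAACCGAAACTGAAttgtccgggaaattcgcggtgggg
In CXCL10 the element starts at −221 and the NF-κB matches at −177 and −122, the second of which reads as a match on both strands. In MX1 a pair of overlapping elements starts at 12 and 18 after the start, and an NF-κB match at −200.

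Sensors and effectors of innate immunity in the cytoplasm were higher later too. Of 13 measured OAS enzymes and nucleic acid sensors 5 were at least 2-fold higher with TNF-α, with a list median of 0.71 against −0.03 with BSA. This count depends on the probe set: OAS2 gave 0.20 on the brightest and 2.23 on another, and OAS3 2.44 and 0.05. IFIH1, which encodes the double-stranded RNA sensor MDA5, read 4.77, 6.87 and 8.52 with TNF-α and 4.62, 4.34 and 5.02 with BSA. RIGI, the sensor of short RNA ends, read 4.85, 7.19 and 8.02 with TNF-α and 4.28, 3.95 and 4.95 with BSA. OAS3, which makes the second messenger of RNase L, read 6.95, 8.71 and 10.07 with TNF-α and 6.58, 6.91 and 7.0 with BSA. Each of these 3 genes was higher at 12 h than at 6 h with TNF-α. Among genes of DNA sensing, IFI16 read 5.42, 6.10 and 7.29 with TNF-α and 5.51, 5.19 and 5.58 with BSA, with a change of 1.27 with TNF-α that did not pass limma (adjusted p = 0.685). CGAS and AIM2 and the sensors TLR3 and ZBP1 differed by no more than 0.15 between the early and later stage of TNF-α. They were dim, between 2.94 and 4.18 on the 6 arrays and below the median of all gene values, 5.10, so a response could be missed.

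Guanylate binding proteins, GTPases that attack the vacuoles of intracellular microbes, differed in when they stood out. GBP1 read 6.48, 10.17 and 9.12 with TNF-α and 4.24, 4.22 and 4.54 with BSA, so that it was 2.24 above its control by 2 h and 5.95 above it at 6 h. Its 5 probe sets all gave higher values later, from 2.94 to 3.78. GBP3 read 3.92, 6.67 and 6.99 with TNF-α and 3.69, 3.31 and 3.62 with BSA. GBP2 read 4.39, 5.73 and 6.21 with TNF-α and 2.97, 2.72 and 3.02 with BSA. GBP1 was therefore lower at 12 h than at 6 h, and GBP2 and GBP3 were not. All 7 members were above their 2 h value, 3 of them at least 2-fold, with a median of 0.97 against −0.10 with BSA.

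Antigen presentation on class I molecules differed less per gene but across the whole list. All 17 measured genes of class I presentation and the immunoproteasome were above their 2 h value with TNF-α and 7 at least 2-fold, with a median of 0.72 against 0.12 with BSA. TAP1, a subunit of the peptide pump, read 8.81, 10.31 and 10.48 with TNF-α and 7.88, 8.58 and 8.17 with BSA. TAPBP, the tapasin gene, which loads peptides, read 7.13, 8.45 and 9.01 with TNF-α and 6.94, 7.10 and 7.06 with BSA. PSMB8, an immunoproteasome subunit, read 7.67, 8.91 and 9.33 with TNF-α and 7.66, 8.27 and 7.86 with BSA. In all 3 genes the 12 h value was the highest of the 6. HLA-F read 6.29, 7.33 and 8.13 with TNF-α and 6.19, 6.59 and 6.14 with BSA, with 9 of its 10 probe sets higher.

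Secreted complement and acute phase proteins split by gene. Of 26 measured, 8 were at least 2-fold higher and 1 at least 2-fold lower with TNF-α, and the median was 0.24 against 0.00 with BSA. C3, the central complement component, read 3.01, 5.96 and 7.34 with TNF-α and 3.06, 3.01 and 3.04 with BSA. It was at its control's level at 2 h and 4.30 above it at 12 h. SAA2, a serum amyloid A protein, read 2.82, 6.36 and 6.08 with TNF-α and 2.73, 2.78 and 2.72 with BSA. SAA2 rose by 3.40 ± 0.16 (limma, adjusted p = 0.0481). It shares much of its sequence with SAA1, which lies outside the rule for naming genes and is given for this reason. SAA1 read 8.75, 10.45 and 11.24 with TNF-α and 8.04, 8.43 and 8.33 with BSA. On the 2 h TNF-α array and the BSA arrays the SAA2 probe set thus stayed at 2.72 to 2.82 although SAA1 was bright. Whether its later signal holds some SAA1 was not tested. For SAA2 the 6 h and 12 h values with TNF-α were close, which sets it apart from C3. SAA4, the serum amyloid A form made without inflammation, read 3.93, 5.91 and 6.46 with TNF-α and 3.68, 3.76 and 3.66 with BSA. PI3, the elastase inhibitor elafin, read 3.94, 6.26 and 7.60 with TNF-α and 3.46, 3.61 and 3.67 with BSA. The 1 gene at least 2-fold lower was PTX3, a pattern recognition protein (11.96, 11.61 and 10.08 with TNF-α), which lies outside the rule for naming genes and was named after its values were seen.

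**Figure D3:**
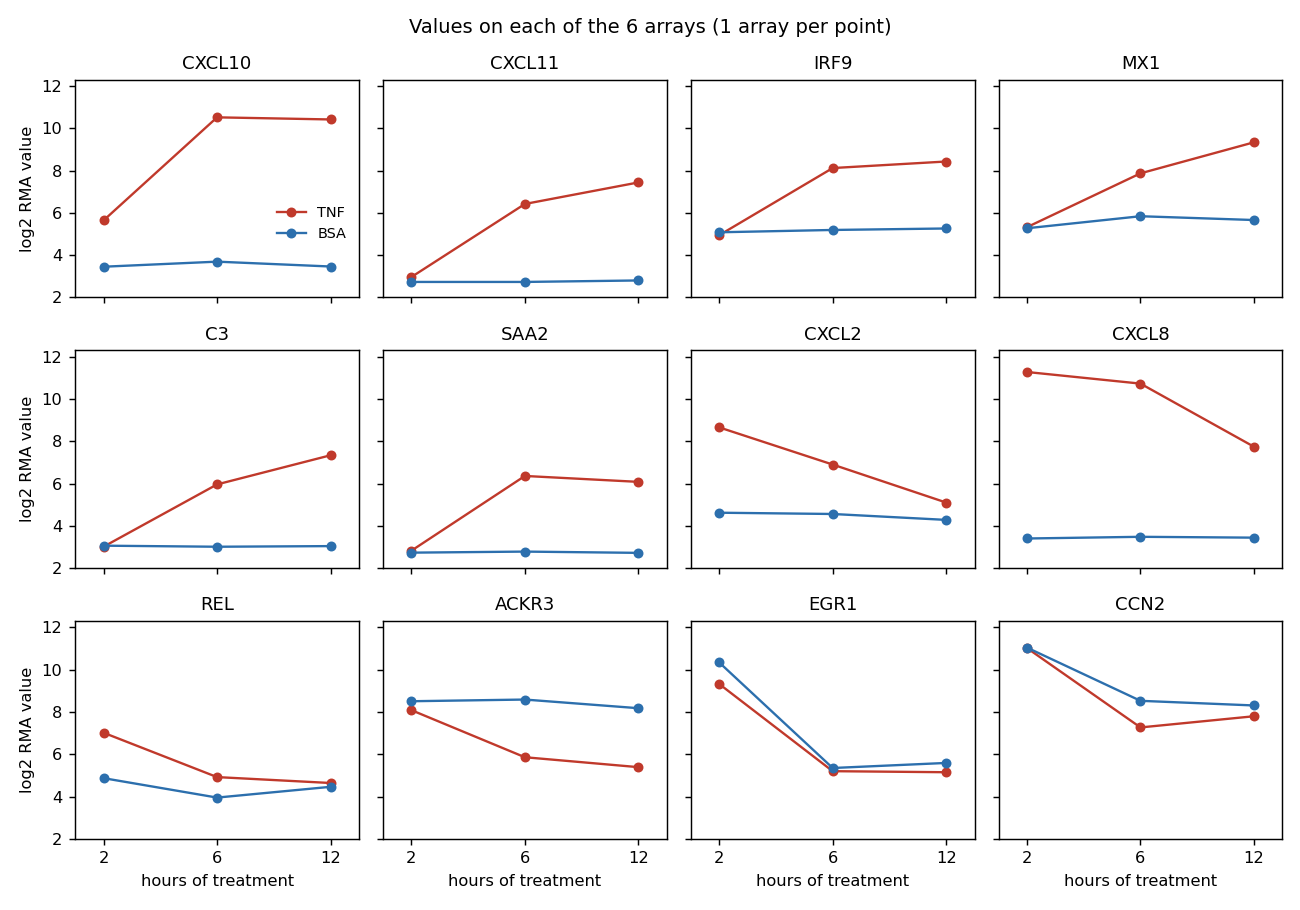
Values of 12 genes on the 6 arrays (vertical axis, log2 RMA value; horizontal axis, the 3 time points in hours, evenly spaced and not to scale), with TNF-α in red and BSA in blue and 1 array per point. CXCL10, CXCL11, IRF9, MX1, C3 and SAA2 are higher at 6 h and 12 h than at 2 h with TNF-α and near level with BSA. CXCL2, CXCL8 and REL are furthest above their control at 2 h, ACKR3 is below its control at 6 h and 12 h, and EGR1 and CCN2 are highest at 2 h in both treatments.

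Among chemokines that attract neutrophils, CXCL2, CXCL3 and CXCL8 had their highest values with TNF-α at 2 h. Of the 6 measured, these 3 were at least 2-fold lower later with TNF-α, 0 were at least 2-fold higher and 0 passed limma, with a list median of −0.94 against 0.01 with BSA. CXCL2 read 8.66, 6.90 and 5.10 with TNF-α and 4.62, 4.56 and 4.28 with BSA. Its lead over the control was 4.05 at 2 h, 2.34 at 6 h and 0.82 at 12 h. CXCL8, or interleukin 8, read 11.28, 10.73 and 7.74 with TNF-α and 3.40, 3.48 and 3.44 with BSA. CXCL8 was thus near its 2 h level at 6 h, and at 12 h it was 4.30 above its control. CXCL3, named as the third of the lower genes though its low level puts it outside the rule for naming, read 4.79, 3.34 and 2.96 with TNF-α. CXCL1 depended on the probe set: the brighter, which stands for the gene in these counts, gave −0.24 and the other −2.07. The dim CXCL5 and CXCL6 had changes of 0.14 and 0.10. With the hour term the difference from BSA passed for CXCL3 alone of the 6. Neither change passed the test: for CXCL2 it was −2.66 ± 0.75 (limma, adjusted p = 0.448) and for CXCL8 −2.04 ± 1.23 (limma, adjusted p = 0.859).

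Other secreted factors differed in which of the 3 times was their highest. CCL20, which draws dendritic cells and T helper cells through CCR6, read 10.87, 10.06 and 7.42 with TNF-α and 3.62, 3.66 and 3.79 with BSA. IL6, the inflammatory cytokine interleukin 6, read 9.29, 8.85 and 6.89 with TNF-α and 4.27, 4.36 and 4.35 with BSA. EFNA1, a ligand of Eph receptors that was first found as a TNF-induced gene of endothelium, read 11.11, 10.38 and 7.92 with TNF-α and 5.72, 5.92 and 5.79 with BSA. In these 3 genes, as in CXCL8, the 6 h value was close to the 2 h value and the 12 h value well below both. LIF, a cytokine of the interleukin 6 family, read 8.41, 7.02 and 5.38 with TNF-α and 5.72, 5.57 and 5.17 with BSA, and at 12 h it was within 0.21 of its control. CCL2, a chemokine for monocytes, read 9.65, 10.48 and 8.85 with TNF-α and 3.75, 4.52 and 3.75 with BSA. CCL2 showed a peak at 6 h in both treatments and a TNF change of 0.01. CCL5, a chemokine for T cells and monocytes, was highest at 12 h, with 4.55, 6.38 and 8.29 with TNF-α and 4.56, 3.80 and 4.10 with BSA. IL32, a cytokine that is itself able to induce TNF-α, read 5.40, 7.73 and 8.13 with TNF-α and 4.26, 4.31 and 4.23 with BSA. CCL5 was at its control's level at 2 h, and IL32 was already above it. IL18, processed by caspase 1, read 4.85, 6.68 and 6.34 with TNF-α and 4.36, 4.59 and 4.70 with BSA. TNFSF10, which encodes the death ligand TRAIL, read 4.44, 5.76 and 6.41 with TNF-α and 4.32, 4.33 and 4.32 with BSA.

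The inhibitors through which NF-κB limits itself differed from each other. NFKBIA, which encodes IκBα, read 11.21, 11.32 and 10.79 with TNF-α and 7.79, 8.20 and 7.64 with BSA. It therefore stood 3.12 to 3.43 above its control at all 3 times, and its change was −0.16 ± 0.33 (SE). TNFAIP3, the gene of the ubiquitin-editing enzyme A20, read 11.21, 10.80 and 9.56 with TNF-α and 3.34, 3.32 and 3.26 with BSA. TNIP1, which encodes a ubiquitin-binding partner of A20, read 6.33, 9.13 and 9.21 with TNF-α and 5.79, 5.91 and 6.04 with BSA. TNIP1 rose by 2.84 ± 0.13 (limma, adjusted p = 0.0481), on all 8 of its probe sets, whereas TNFAIP3 had been highest at 2 h. NFKBIZ, a nuclear IκB protein that helps to switch on late cytokine genes, read 9.0, 8.11 and 6.94 with TNF-α and 5.25, 4.93 and 5.30 with BSA. CYLD, a deubiquitinase, read 5.70, 6.31 and 6.52 with TNF-α and 5.39, 4.89 and 5.31 with BSA. Of the 11 listed genes, TNIP1 was at least 2-fold higher, and NFKBIZ and TNFAIP3 at least 2-fold lower.

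Among the 5 subunits of NF-κB itself, REL was the 1 at least 2-fold lower later. REL, which encodes c-Rel, read 7.02, 4.92 and 4.64 with TNF-α and 4.87, 3.95 and 4.46 with BSA. Its lead of 2.14 at 2 h was 0.97 at 6 h and 0.18 at 12 h, and both of its probe sets were lower later. RELB, the subunit of the noncanonical pathway, read 7.14, 8.06 and 7.93 with TNF-α and 5.14, 5.41 and 5.04 with BSA. NFKB1 read 8.67, 9.45 and 8.44 with TNF-α and 6.16, 6.76 and 6.67 with BSA, with its highest value at 6 h. For RELA the change was 0.38 with TNF-α and 0.21 with BSA. Promoters of CXCL2 (chr4:74099146-74099445, minus strand) and REL (chr2:60881324-60881623, plus strand) are shown because, among the 12 largest lower genes with an NF-κB consensus, theirs were the changes furthest below those of the control cells, with the same capitals as above.
CXCL2: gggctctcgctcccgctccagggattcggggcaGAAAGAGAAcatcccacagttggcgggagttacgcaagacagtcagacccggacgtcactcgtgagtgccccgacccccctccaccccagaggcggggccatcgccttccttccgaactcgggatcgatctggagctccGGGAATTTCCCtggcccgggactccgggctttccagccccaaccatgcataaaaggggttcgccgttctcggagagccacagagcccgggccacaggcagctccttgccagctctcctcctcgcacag
REL: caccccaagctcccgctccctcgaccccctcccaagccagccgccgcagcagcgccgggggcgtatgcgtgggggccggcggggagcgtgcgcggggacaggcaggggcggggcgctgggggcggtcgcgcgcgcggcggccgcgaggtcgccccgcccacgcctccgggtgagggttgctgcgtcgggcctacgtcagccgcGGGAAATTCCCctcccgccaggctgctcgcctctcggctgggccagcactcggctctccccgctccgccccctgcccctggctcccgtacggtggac
In both promoters the NF-κB match is read on both strands with a shift of 1 base, starting at −78 and −77 in CXCL2 and at −47 and −46 in REL. CXCL2 also holds the element GAAANNGAA at −217 although its transcript was highest at 2 h, and REL holds none.

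Most immediate early genes had lower values later in both treatments. Of 22 measured AP-1 and immediate early genes 7 were at least 2-fold lower with TNF-α and 6 with BSA, and the list medians were −0.51 and −0.52. With TNF-α 17 were below their 2 h value and 5 above it, and with BSA 19 and 3. Genes with later values above that at 2 h included KLF4, which read 8.16, 9.39 and 8.65 with TNF-α and 5.45, 4.91 and 5.03 with BSA, and FOSL2, with a change of 0.63 with TNF-α. EGR1 was the 1 listed gene that passed limma in either treatment. EGR1 read 9.33, 5.20 and 5.15 with TNF-α and 10.35, 5.35 and 5.59 with BSA. It fell by 4.15 ± 0.15 with TNF-α (limma, adjusted p = 0.0305) and by 4.89 ± 0.15 with BSA (limma, adjusted p = 0.0293), and at 2 h it was higher without the cytokine. ATF3, a stress-induced AP-1 partner, read 8.42, 5.94 and 5.64 with TNF-α and 6.99, 4.84 and 4.74 with BSA (4 of its 7 probe sets were lower with TNF-α and 3 higher, the latter by at most 0.13). IER3, which dampens NF-κB signals, read 10.88, 8.57 and 6.70 with TNF-α and 8.32, 6.19 and 5.32 with BSA. ATF3 and IER3 were thus above their controls at every time and were lower later in both treatments. NR4A3, an orphan nuclear receptor, read 6.28, 4.39 and 3.76 with TNF-α and 4.89, 4.21 and 3.76 with BSA. JUN, the core AP-1 subunit, stood 1.63 above its control at 2 h, 1.53 at 6 h and 1.55 at 12 h. FOS depended on the probe set: the brightest gave −0.20 with TNF-α and −0.26 with BSA, and another gave −2.45 and −3.40.

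**Figure D4:**
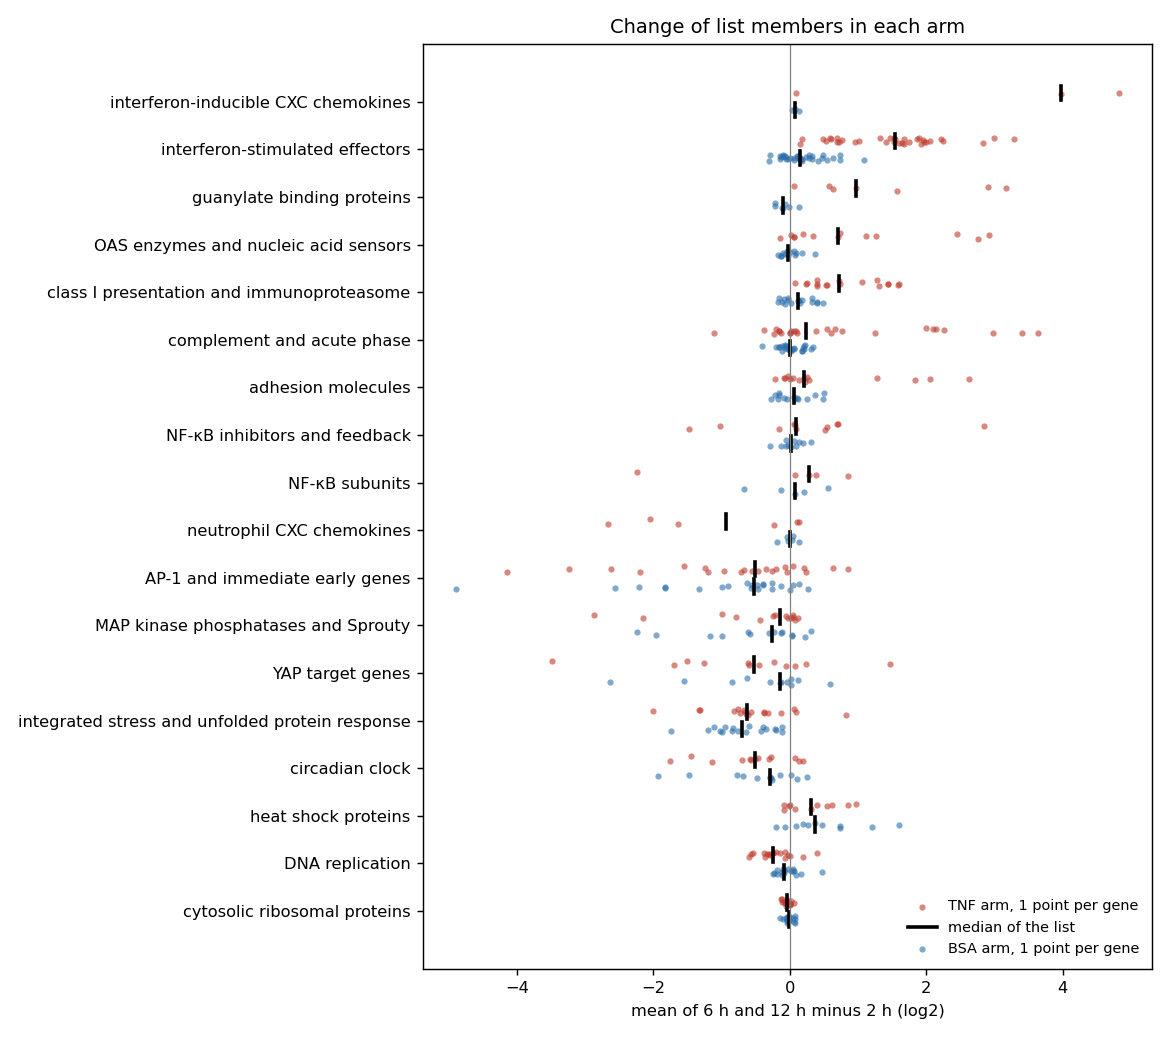
Each point is 1 gene of a list, placed by its change from 2 h to the mean of 6 h and 12 h (log2), red for TNF-α and blue for BSA, with black bars for list medians. The lists from the CXC chemokines induced by interferon (3.97 with TNF-α) to class I presentation (0.72) lie to the right with TNF-α and near 0 with BSA. The AP-1 list (−0.51 and −0.52) and the stress response list (−0.63 and −0.70) lie to the left in both treatments, and ribosomal proteins lie at −0.04 and −0.02.

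Some phosphatases and growth factors were lower in both treatments as well. Of 14 MAP kinase phosphatases and Sprouty genes 2 were at least 2-fold lower with TNF-α and 3 with BSA, with medians of −0.14 and −0.27. DUSP1, which lies outside the rule for naming genes, changed by 0.07 with TNF-α and −1.17 with BSA. DUSP6, the phosphatase that switches off ERK, read 8.19, 4.97 and 5.68 with TNF-α and 7.59, 5.36 and 5.36 with BSA. DUSP5, its nuclear relative, read 7.28, 5.16 and 5.11 with TNF-α and 6.79, 4.98 and 4.66 with BSA. CCN2, a matrix-associated growth factor and target of YAP, read 11.03, 7.27 and 7.80 with TNF-α and 11.05, 8.53 and 8.31 with BSA. DUSP6, DUSP5 and CCN2 were lower in both treatments at both later times. F3, the tissue factor gene, which is also on the YAP list, read 8.35, 6.92 and 6.78 with TNF-α and 7.58, 7.32 and 7.26 with BSA. ANKRD1, another YAP target, was higher later, with 6.78, 8.50 and 7.99 with TNF-α and 5.46, 5.36 and 5.47 with BSA. Of the 12 YAP targets 4 were at least 2-fold lower and 1 higher with TNF-α, and the medians were −0.53 with TNF-α and −0.14 with BSA.

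Some genes were lower later with TNF-α although at 2 h they stood no higher than the control. ACKR3, an atypical receptor that scavenges CXCL11 and CXCL12, read 8.09, 5.86 and 5.39 with TNF-α and 8.51, 8.59 and 8.18 with BSA. SLC38A4, an amino acid transporter, read 7.43, 5.82 and 4.84 with TNF-α and 7.58, 7.48 and 8.08 with BSA. ID2, an inhibitor of basic helix-loop-helix factors, read 8.06, 6.11 and 4.62 with TNF-α and 9.71, 8.54 and 7.92 with BSA. For all 3 the 12 h value with TNF-α was the lowest of the 6 arrays. ID1 read 6.51, 4.42 and 5.23 with TNF-α and 8.97, 7.94 and 7.33 with BSA, and was below its control from 2 h on. RFX7, a transcription factor of the p53 network, read 4.16, 3.17 and 3.27 with TNF-α, while with BSA it read 4.15, 4.87 and 5.51. BAMBI, a decoy receptor for BMP and TGF-β ligands, was instead above its control at 2 h, at 8.29, 7.12 and 6.29 with TNF-α against 5.39, 5.86 and 5.34.

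Surface receptors and adhesion molecules differed in the time of their highest value. ICAM1, the ligand of leukocyte integrins, read 6.66, 8.78 and 8.22 with TNF-α and 4.37, 4.23 and 4.18 with BSA. VCAM1, the ligand of the integrin VLA-4, read 7.29, 8.86 and 8.26 with TNF-α and 4.26, 4.23 and 4.49 with BSA. CD44, the hyaluronan receptor, read 5.19, 7.21 and 8.42 with TNF-α and 4.96, 5.35 and 5.59 with BSA, with all 10 probe sets higher. ICAM1 and VCAM1 were both highest at 6 h and above their controls by 2 h, whereas CD44 was highest at 12 h. ITGB8, an integrin chain that activates TGF-β, read 5.12, 7.59 and 6.77 with TNF-α and 4.38, 4.55 and 5.18 with BSA. These 4 were the members of the 15 adhesion genes at least 2-fold higher with TNF-α, and 0 were lower. LCP1, the actin bundler L-plastin, read 4.68, 7.68 and 8.48 with TNF-α and 4.06, 4.28 and 4.23 with BSA. FRMD4A, an epithelial polarity gene, read 4.61, 7.92 and 7.13 with TNF-α and 4.80, 5.43 and 5.49 with BSA.

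Receptors and adaptors of the TNF family were among the later genes. TRAF1, an adaptor of the TNF receptor complex, read 4.71, 6.67 and 7.07 with TNF-α and 4.18, 4.21 and 4.26 with BSA. FAS, a death receptor, read 4.85, 6.09 and 6.96 with TNF-α and 4.88, 4.53 and 5.02 with BSA. FAS was at its control's level at 2 h and TRAF1 near it. TNFRSF9, which encodes the costimulatory receptor 4-1BB, read 7.47, 9.03 and 9.08 with TNF-α and 4.05, 4.03 and 3.62 with BSA. CD40, the receptor of CD40 ligand on helper T cells, read 3.56, 4.20 and 5.30 with TNF-α and 3.21, 3.34 and 3.26 with BSA. These 4 of 18 listed genes were at least 2-fold higher with TNF-α, and 0 were lower. SOD2, the mitochondrial superoxide dismutase, read 7.48, 9.83 and 10.69 with TNF-α and 6.88, 6.92 and 7.08 with BSA.

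Between 6 h and 12 h the later stage was itself not uniform. Of the 183 higher genes 128 were at least 2-fold above their 2 h value on both later arrays. Of the same 183, 143 differed by less than 2-fold between 6 h and 12 h, 33 were at least 2-fold higher at 12 h and 7 at least 2-fold lower. The 7 were EXT1, GBP1, KCNJ15, MREG, PLPP3, PTPRE and SHB. Of the 168 lower genes 102 were at least 2-fold below their 2 h value on both later arrays. Of the same 168, 21 were at least 2-fold lower at 12 h than at 6 h and 143 differed by less than 2-fold, and 4 (ANKRA2, DNAJB4, GDPD1 and RPRD1A) were at least 2-fold higher at 12 h than at 6 h. These genes were named after their values were seen.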

How the data were processed

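Expression was measured on Affymetrix GeneAtlas arrays from 10 ng of total RNA each. The authors deposited log2 values per probe set, made with RMA per the submitters' processing notes; which program and version made them is not stated in the sources used here. RMA equalises distributions between arrays, so shifts shared by all genes are not seen. Of 49386 probe sets, 45253 had 1 gene symbol in the platform annotation and were used; 1327 had several symbols, 2713 none and 93 were controls. Of the genes with several probe sets (11822 of 18239), the brightest over the 8 arrays stood for the gene. The values were used as deposited, unfiltered.

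The change in each treatment and the difference of the changes were fitted over the 6 arrays in R 4.3.3 by limma 3.58.1 (two-sided moderated tests from lmFit and eBayes, 2 residual degrees of freedom), with Benjamini-Hochberg adjustment over all 18239 genes and a threshold of 0.05. The script was tested on simulated data. Arrays give no read depth, so their number limits the precision.

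Named genes, among those whose highest value passes the median of all values, are the 12 largest changes each way with TNF-α, the 10 largest differences each way (none passed without the hour term), up to 4 members per list and a fixed set that includes NFKBIA and CXCL8. The 42 lists held 590 symbols, 543 of them measured. The comparison, members and lists were chosen with earlier results of these data known. Alternatives were the mean of probe sets, renewed quantile normalisation, a filter on dim genes, each later array left out, a slope on log2 hours, another prior variance, the 24 h arrays added and, chosen after the data were seen, the hour as a block. Promoters matched by symbol came from RefSeq (GRCh38.p14).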

Additional observations from a re-analysis of the deposited data

Results flagged for a closer look

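Of 552 named or listed genes, 25 had both later arrays with TNF-α on one side of the 2 h array, both later arrays with BSA on the other and changes at least 2-fold apart. The difference of the 2 changes, TNF-α minus BSA, was 3.67 for C3, 3.38 for CCL5, 3.12 for GBP3, 2.97 for XAF1, 2.35 for MX2, 2.20 for C1S, 2.17 for IFITM1, 2.00 for ICAM1, 1.81 for TNFRSF9, 1.49 for IL15, 1.38 for ZFP36L1, 1.35 for KLF4, 1.33 for CFLAR, 1.18 for HLA-B, 1.14 for STAT5A, 1.09 for GBP4, 1.08 for BBC3, 1.04 for DDIT4 and 1.01 for CYLD. It was −2.23 for CCL20, −2.10 for CXCL8, −2.08 for EFNA1, −1.98 for RFX7, −1.51 for IL6 and −1.21 for THBS1. limma's test of the difference without the hour term passed for none of these genes, with adjusted p from 0.529 (GBP3 and XAF1) to 1. With the hour as a block it passed for 10 of the 25: C3, CCL5, CFLAR, GBP3, ICAM1, IL15, RFX7, TNFRSF9, XAF1 and ZFP36L1. Over all genes it passed for 0.373% above and 0.0932% below. The 25 were picked by the size of this same difference, so their share passing is no separate evidence. RFX7, ZFP36L1, CCL5 and THBS1 were those of the 25 whose BSA change was larger than 0.5 in size, at 1.04, −0.64, −0.61 and 0.59. For the other 21 the BSA change lay between −0.49 and 0.13.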

How the results depend on the processing

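The number of genes that passed limma depended on the setting, and the sizes of the changes did so less. Genes that rose with TNF-α numbered 3, against 7 with the mean of probe sets, 1 after renewed quantile normalisation, 21 with a trended, robust prior, and 0 with a slope on log2 hours or with the 24 h arrays added. Genes that fell with TNF-α numbered 1, against 2 with the mean of probe sets, 14 with the trended prior, and 0 with the slope or the 24 h arrays. The 1 gene that fell with BSA became 0 with the slope and with the 24 h arrays. GAPDH's 3′ end read 6.28 above its 5′ end on the TNF-α array at 24 h, against 0.20 to 0.37 on the 6 arrays. The mean correlation of this 24 h array with the 6 was r = 0.92. What this array alone did to the counts was not tested. The difference of the changes passed for 0 genes above, and with the trended prior for 2: CXCL10 (4.70, adjusted p = 0.0266) and SAA2 (3.38, adjusted p = 0.0251). Leaving out each later array in turn left 1 residual degree of freedom and 0 to 0 genes passing in each of these counts; the 2 h arrays could not be left out. Genes at least 2-fold higher with TNF-α numbered 183, against 121 with the mean of probe sets and 183 to 214 with an array left out, and those lower 168, against 87 and 168 to 222. Of 42 named genes at least 2-fold apart with TNF-α, all 42 kept their direction under the alternatives that give a change (all but the slope), and 36 to 42 stayed at least 2-fold apart. Of 35 named differences of that size all 35 kept theirs. For the 42 TNF changes part of this agreement was fixed in advance. Every gene at least 2-fold apart with TNF-α had both later arrays on the same side of 2 h. Leaving out 1 of those arrays could therefore not reverse its direction. Leaving out a BSA array, filtering dim genes or another prior leaves the TNF change itself as it was. The size of CCL2 hung on 1 array: its TNF change of 0.01 was −0.80 without the 6 h array. With the hour as a block, which pairs the arrays of each hour and was chosen after seeing the data, the difference passed for 68 genes above and 17 below, and 1070 genes had an unadjusted p under 0.05. The labels give no replicate numbers, and a change within 1 treatment cannot be paired.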

Other observations

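Several gene groups outside the inflammatory response differed between 2 h and the later stage in both treatments. Of 18 genes of the integrated stress and unfolded protein responses 15 were below their 2 h value with TNF-α and 18 with BSA, with medians of −0.63 and −0.70. SLC7A11, the cystine importer, read 8.85, 8.01 and 5.68 at 2 h, 6 h and 12 h of TNF-α and 9.25, 7.83 and 7.20 with BSA. HERPUD1, which acts in the disposal of misfolded proteins, read 9.33, 7.66 and 8.35 with TNF-α and 9.58, 8.51 and 8.25 with BSA (1 of its 4 probe sets gave 0.06 with TNF-α). Of 13 circadian clock genes 3 were at least 2-fold lower with TNF-α and 2 with BSA. NR1D2, a nuclear receptor that represses BMAL1, read 8.21, 6.70 and 6.21 with TNF-α and 8.04, 6.70 and 5.52 with BSA. BHLHE40, a clock repressor, read 7.24, 5.84 and 5.74 with TNF-α and 6.18, 4.88 and 4.52 with BSA.

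Of 11 heat shock genes 8 were above their 2 h value with TNF-α and 9 with BSA; 0 were at least 2-fold higher with TNF-α and 2 with BSA, and 0 passed limma in either, with list medians of 0.31 with TNF-α and 0.37 with BSA. HSPA1B, an inducible HSP70 gene whose probes may also read its near-identical neighbour HSPA1A, read 7.35, 7.81 and 8.83 with TNF-α and 6.77, 7.92 and 8.81 with BSA. All 7 measured metallothioneins were above their 2 h value in both treatments, with medians of 0.36 and 0.67. MT1M read 5.19, 6.41 and 6.23 with TNF-α and 5.25, 6.78 and 6.25 with BSA. DNA replication genes had medians of −0.25 with TNF-α and −0.08 with BSA, and 0 of 18 were at least 2-fold apart in either. TNC, the matrix protein tenascin C, read 6.93, 9.68 and 9.94 with TNF-α and 4.37, 5.12 and 6.33 with BSA. PLAU, the urokinase gene, read 10.49, 9.24 and 8.37 with TNF-α and 7.93, 8.01 and 7.63 with BSA.

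From 6 h to 12 h the treatments differed in the count of genes at least 2-fold apart. With TNF-α 68 genes were higher and 85 lower at 12 h than at 6 h, and with BSA 142 were higher and 21 lower. These values compare single arrays and carry no test.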
